A study of Mus musculus with 23 samples.

Results

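Clonal preadipocyte lines labelled Type 1 by the submitters were set against lines labelled Type 3, to ask which transcripts separate the groups. The comparison took 3 Type 1 lines and 8 Type 3 lines, chosen by that label alone, out of 23 lines in the series. The Type 1 lines were the clones PGF2-8, PGF3-4 and PGF3-11, called Type 1 lines 1 to 3 here. The Type 3 lines 1 to 8 were SCF1-12, SCF1-13, SCF1-15, SCF3-9, PGF2-2, PGF2-5, PGF3-3 and PGF3-15. Clone names that begin with PGF were read as perigonadal fat and those that begin with SCF as subcutaneous fat. Both groups shared 1 male Immortomouse aged 8 weeks as their donor, a mouse whose cells carry a temperature-sensitive T antigen that interferon gamma switches on and that lets primary cells grow as lines. The stromal vascular cells were cultured at 33 °C in medium that held 10 units/mL interferon gamma, 190 cells were sorted singly after 2 passages, and the clones stayed in the same conditions. Each line is 1 clone on 1 array, no treatment separates the groups, and the sources used here do not give whether RNA was taken before or after induced differentiation.

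White fat contains fibroblast-like precursors in its stroma, and the fat around the gonads is also covered by mesothelium, a flat epithelial-like sheet that carries keratins, uroplakins and the transcription factor Wt1. Precursors commit to the fat cell fate through early B-cell factors and Zfp423, and then through Pparg and Cebpa, which switch on lipid genes such as Fabp4. Both the stroma and the mesothelium talk to their neighbours through Wnt, BMP, FGF, IGF, lysophospholipid and vascular signals, and these families are taken in turn below.

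The submitters formed the types by clustering expression data, so the p-values below describe how far apart the groups lie and are no independent evidence that the types exist. All lines came from 1 mouse, so these p-values measure the spread between clones. In a line with a low value, fewer expressing cells and less RNA per cell cannot be told apart. Array medians lay between 5.09 and 5.16, and array pairs correlated at 0.978 to 0.992 within Type 1, 0.976 to 0.992 within Type 3 and 0.937 to 0.967 between the types. Type 1 line 1 had an actin 3′ minus 5′ signal of 1.58, against 0.53 to 1.00 in the other lines of the series. A higher signal is a sign of less intact RNA. Type 3 line 4 stood apart in interferon-induced genes, as given with those genes. Pdgfra, a receptor of preadipocytes, was above the table median of 5.13 in every line of both groups, and Ly6a was not analysed here. Of 12 leukocyte markers 6 were above that median in at least 1 Type 1 line and 7 in at least 1 Type 3 line, and the list averaged 4.81 to 4.96 in Type 1 and 4.71 to 5.40 in Type 3. Single leukocyte markers lay well above these averages. Csf1r read 5.98 to 7.87 in Type 1 and 6.51 to 10.08 in Type 3. Cd14 read 7.13 to 7.43 in Type 1 and 7.46 to 8.55 in Type 3, and Cd53 4.38 to 5.90 in Type 1 and 4.57 to 9.40 in Type 3. In the same way, 12 endothelial markers averaged 4.50 to 4.81 in Type 1 and 4.51 to 4.73 in Type 3, and the 12 epithelial markers 4.65 to 4.92 in Type 1 and 4.51 to 4.68 in Type 3. For 8 pericyte markers the averages were 4.89 to 5.01 in Type 1 and 4.99 to 5.35 in Type 3, and for 10 skeletal muscle markers 3.87 to 3.96 in Type 1 and 3.91 to 4.10 in Type 3. For 6 Schwann cell markers Type 1 lines averaged 4.65 to 4.85 and Type 3 lines 4.39 to 4.88, and for 4 mature adipocyte markers Type 1 lines averaged 3.57 to 3.72 and Type 3 lines 3.73 to 4.83. The defining markers Ptprc, Pecam1, Cdh1, Myod1 and Adipoq did not pass the filter on low values, although Adipoq reached 6.48 in Type 3.

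Of 12307 genes tested, 4274 differed between Type 1 and Type 3 at an adjusted p below 0.05, which is 34.7% of the genes. A gene is called when it passes that threshold in limma after Benjamini-Hochberg adjustment. Higher in Type 1 were 2324 genes (18.9%) and lower were 1950 genes (15.8%). The median difference was 0.63 log2 units among the genes called higher, -0.75 among those called lower and 0.0083 over all genes. Counts in the gene lists below are to be read against these shares, and a list near them is no result about its members. The lists were chosen with earlier results of these data known, so a list far from these shares is no independent evidence either. The filter on low values was passed only through the Type 1 lines by 163 genes, and 121 of these were called. For such genes the filter itself required high values in Type 1, so their calls are no support for a direction. Where a list holds such genes, the same caution is due for called members below the table median in every Type 3 line. The leukocyte, endothelial, pericyte and Schwann cell marker lists each held 1 such tested gene. Differences here are Type 1 minus Type 3 on the log2 scale, given with their standard error. In 1771 genes (14.4%) all 3 Type 1 lines lay above all 8 Type 3 lines with a call, and in 1436 genes (11.7%) they lay below them. A difference of at least 4 log2 units was reached by 53 genes called higher and 45 called lower (0.796% of all tested together). In contrast, Type 2 minus Type 3 gave 47 calls (0.382%) in the same fit. Of the marker lists of other cell types, calls higher and lower were 1 and 2 of 7 for leukocytes (0 and 0 without Type 1 line 1, and 1 and 0 without Type 1 line 3), 1 and 1 of 5 for pericytes, 0 and 0 of 5 for epithelium, 0 and 0 of 2 for skeletal muscle, 1 and 1 of 3 for Schwann cells and 0 and 0 of 1 for mature adipocytes, and the part of other cells in the results was not tested. The leukocyte calls were Cd68 higher (1.30, adjusted p = 0.0242), and Csf1r (-1.85, adjusted p = 0.0453) and Lyz2 (-0.53, adjusted p = 0.0216) lower. Over all genes, without Type 1 line 1 the count was 3124, without Type 3 line 4 it was 4358, and with the actin signal in the model, an alternative added after the data were seen, it was 4564.

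**Figure D1:**
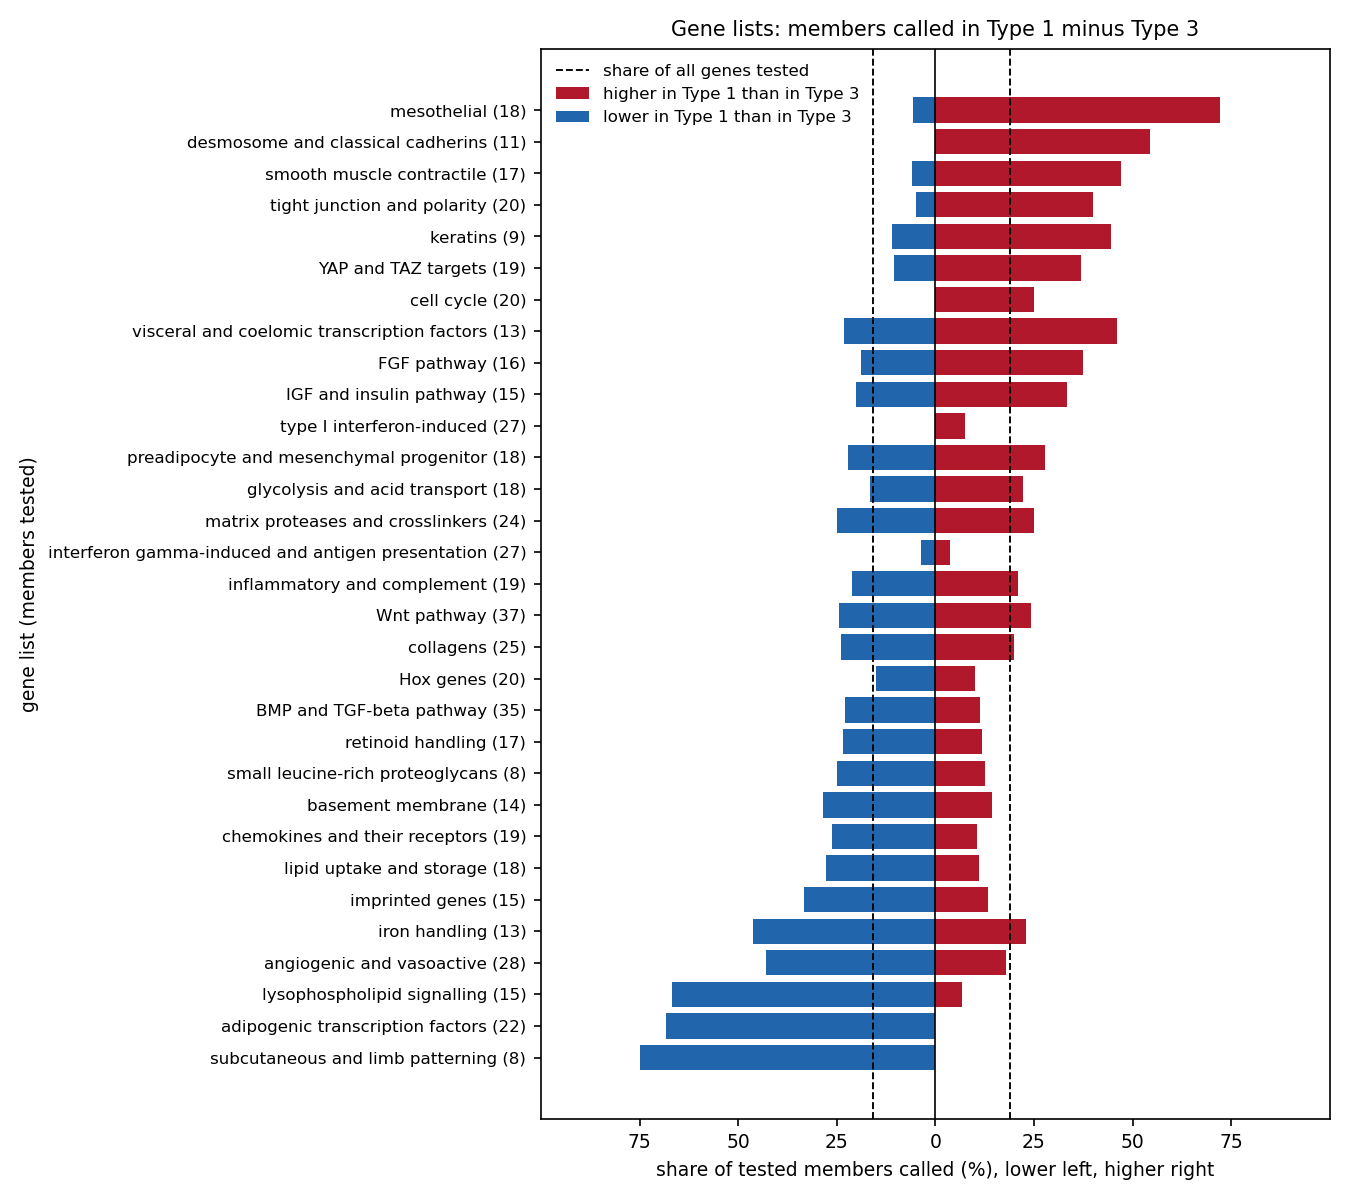
Share of the tested members of each gene list that were called higher in Type 1 (red, to the right) or lower in Type 1 (blue, to the left), in percent, with the number tested in brackets; dashed lines mark the shares over all genes, 18.9% higher and 15.8% lower. The mesothelial list reaches furthest to the right with 13 of 18, of which 9 were tested only because Type 1 is high, and the subcutaneous and limb patterning list furthest to the left with 6 of 8. The lists were chosen with earlier results of these data known.

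Most genes of the mesothelial list that could be tested were higher in Type 1. Of 18 tested members of the mesothelial list, 13 were higher in Type 1 and 1 was lower, with a median difference of 4.08 (12 and 0 among PGF lines alone). Of the 18, 9 passed the filter on low values only through the Type 1 lines, so for those the filter required high values in Type 1. The member called lower was Calb2, at 4.66 to 4.94 in Type 1, against 5.00 to 5.34 in Type 3. Gpm6a, which did not pass the filter, ranged from 3.67 to 10.6 among the Type 1 lines, against 2.78 to 3.35 in Type 3. Wt1, Tagln and Mx1 are markers that the study chose on these lines and are not independent evidence of a direction. Lrrn4, a leucine-rich repeat membrane protein known as a marker of mesothelium, read 11.33, 10.96 and 10.77 in the Type 1 lines, against 2.81 to 3.02 (median 2.95) in the Type 3 lines. This is a difference of 8.09 ± 0.21 (adjusted p = 2.17e-17), or a 272-fold ratio of levels. The uroplakin Upk3b, a membrane protein of urothelium and mesothelium, read 12.59, 12.41 and 12.19 in Type 1, against 4.20 to 4.77 with a median of 4.51 in Type 3. Upk1b, another uroplakin, read 12.26, 12.05 and 11.73 in Type 1, against 5.39 to 5.67 with a median of 5.52 in Type 3. For these 3 genes no line of one type reached the range of the other. Wt1, a zinc finger factor of the coelomic lining, stood at 10.64, 10.61 and 10.40 in the Type 1 lines, against 3.01 to 5.24 (median 3.54) in the Type 3 lines, a difference of 6.84 ± 0.35 (adjusted p = 1.24e-12). The zinc finger factor Bnc1 read 11.08, 10.41 and 10.51 in Type 1, against 2.85 to 5.60 with a median of 4.01 in Type 3 (adjusted p = 3.12e-07). Cd200, a surface glycoprotein that restrains myeloid cells, read 10.29, 10.07 and 10.22 in Type 1, against 2.84 to 3.23 with a median of 3.07 in Type 3 (7.14 ± 0.20). No detection calls were used, so folds of genes whose Type 3 values lie at the bottom of the table depend on the background of the array.

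The promoter windows of Lrrn4 and Upk3b are shown because both genes were below the table median in every Type 3 line and both windows hold the 6-base core of the site bound by TEAD factors, GGAATG on either strand, in capitals. Each run holds the 250 bases before the gene start on the gene's own strand (RefSeq, GRCm38.p6). In Lrrn4 (chr2:132880863-132881112, minus strand) the core begins 196 bases before the start, and in Upk3b (chr5:136038246-136038495, plus strand) it begins 241 bases before it, read as CATTCC.
Lrrn4: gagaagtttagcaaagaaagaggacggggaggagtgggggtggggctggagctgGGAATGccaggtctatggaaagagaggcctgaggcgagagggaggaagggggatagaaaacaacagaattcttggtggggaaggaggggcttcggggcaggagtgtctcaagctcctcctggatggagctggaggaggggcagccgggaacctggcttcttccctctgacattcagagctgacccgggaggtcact
Upk3b: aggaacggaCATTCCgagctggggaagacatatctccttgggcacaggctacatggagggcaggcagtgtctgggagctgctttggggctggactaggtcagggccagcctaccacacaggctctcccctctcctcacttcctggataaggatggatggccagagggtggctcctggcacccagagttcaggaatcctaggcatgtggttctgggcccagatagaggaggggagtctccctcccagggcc
The core was found in 3 of 8 windows of mesothelial genes called higher, and in 12.6% of 32851 windows of all genes. A match of these letters describes the window and is no evidence of binding.

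Keratins differed among the Type 1 lines themselves. Krt18, a type I keratin of simple epithelia, was high in all, at 12.27, 10.70 and 12.13 in the Type 1 lines, against 3.37 to 3.61 (median 3.48) in the Type 3 lines, and its difference of 8.20 ± 0.41 was a 295-fold ratio (adjusted p = 1.00e-12). Its type II partner Krt8 read 11.07, 5.17 and 11.09 in the Type 1 lines, against 4.58 to 5.06 (median 4.79) in the Type 3 lines. Type 1 lines 1 and 3 were thus far above every Type 3 line, while Type 1 line 2 (PGF3-4) lay just above the highest of them. The difference was 4.29 ± 0.71 (adjusted p = 7.71e-05). Krt7, another type II keratin of ducts and mesothelium, read 10.99, 6.65 and 7.54 in Type 1, against 3.88 to 5.63 with a median of 4.31 in Type 3 (3.87 ± 0.55, adjusted p = 1.19e-05). Mesothelin (Msln), a surface glycoprotein of the same sheet, read 8.87, 5.27 and 6.98 in Type 1, against 3.31 to 3.69 with a median of 3.51 in Type 3 (3.54 ± 0.38, adjusted p = 2.97e-07). In both genes line 1 was highest and line 2 lowest. Krt19 had 5.14, 4.97 and 6.37 in Type 1, against 4.96 to 7.44 with a median of 6.23 in Type 3, the groups overlapped, and it was not called (adjusted p = 0.397). Of 9 keratins tested 4 were higher and 1 was lower, with a median difference of 0.00010, and 3 of the 4 (Krt7, Krt8 and Krt18) passed the filter only through Type 1. Without Type 1 line 1 the difference of Krt7 was 2.57. The epithelial keratins Krt5 and Krt20 were not called.

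**Figure D2:**
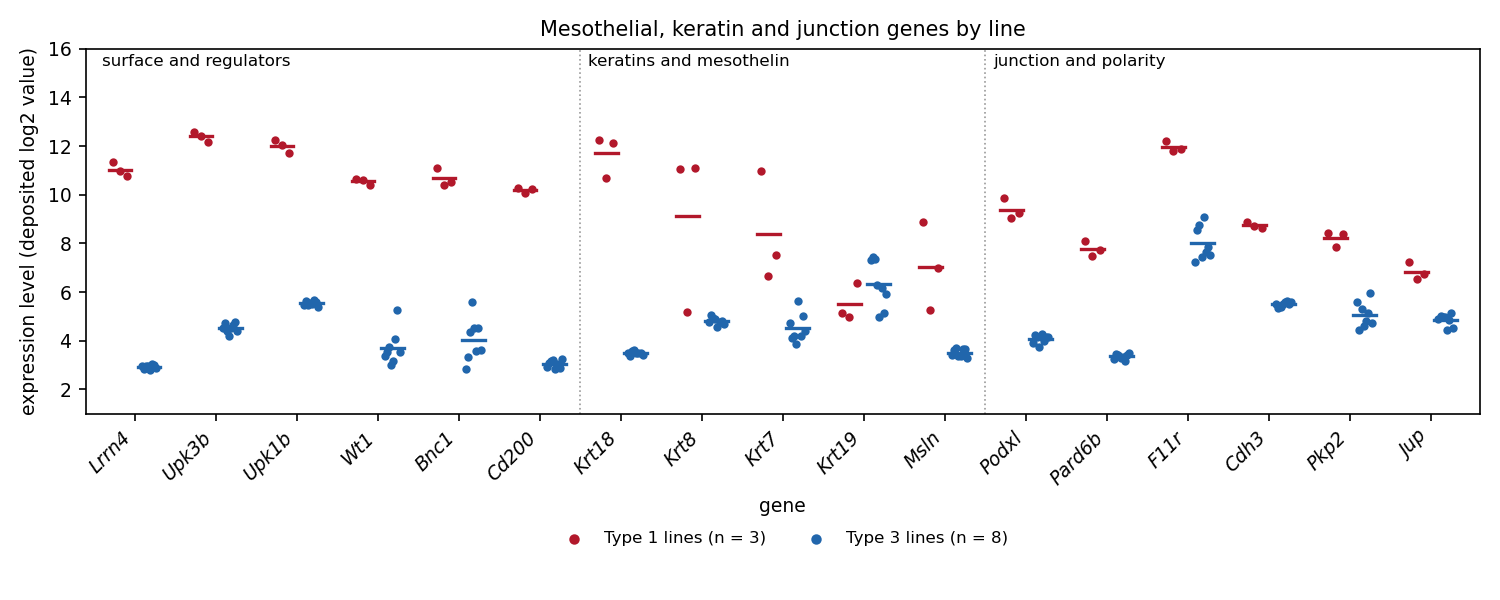
Deposited log2 level (vertical axis) of mesothelial, keratin, junction and polarity genes in each of the 3 Type 1 lines (red) and 8 Type 3 lines (blue); each point is 1 line and the bar is the group mean. Lrrn4, Upk3b, Upk1b and Cd200 form 2 tight and distant groups, Krt8 has 1 Type 1 line at 5.17 beside 2 near 11.1, and Krt19 overlaps.

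Several junction and polarity genes were higher in Type 1, while the epithelial cadherin Cdh1 did not pass the filter. Of 11 tested desmosome and cadherin genes 6 were higher and 0 lower, with a median difference of 0.63 (3 and 0 among PGF lines alone). P-cadherin (Cdh3), a classical cadherin, read 8.87, 8.73 and 8.65 in the Type 1 lines, against 5.36 to 5.63 (median 5.52) in the Type 3 lines, which is 3.24 ± 0.089 (adjusted p = 2.33e-17). Plakophilin 2 (Pkp2), a desmosomal plaque protein, read 8.44, 7.85 and 8.37 in Type 1, against 4.42 to 5.97 with a median of 4.98 in Type 3. Plakoglobin (Jup), which links desmosomal cadherins to filaments, read 7.26, 6.52 and 6.73 in Type 1, against 4.46 to 5.15 with a median of 4.93 in Type 3. No Type 1 line overlapped a Type 3 line in these 3 genes. The differences were 3.15 ± 0.41 for Pkp2 (adjusted p = 4.71e-06) and 1.98 ± 0.15 for Jup (adjusted p = 1.32e-09). The desmosomal genes Dsp, Dsg2 and Dsc2 did not pass the filter. Of 20 tight junction and polarity genes 8 were higher and 1 lower, with a median difference of 0.058 (6 and 0 among PGF lines alone, and 7 and 3 without Type 1 line 1), and 3 of the 8 (Cgn, Pard6b and Podxl) passed the filter only through Type 1. Podocalyxin (Podxl), an apical sialomucin, read 9.85, 9.06 and 9.25 in the Type 1 lines, against 3.74 to 4.27 (median 4.16) in the Type 3 lines. Pard6b, a subunit of the apical Par complex, read 8.11, 7.49 and 7.74 in Type 1, against 3.17 to 3.48 with a median of 3.37 in Type 3. The differences were 5.31 ± 0.15 (adjusted p = 2.33e-17) and 4.42 ± 0.18 (adjusted p = 1.98e-14), with no overlap. Cingulin (Cgn) differed by 2.19 ± 0.15, the basolateral polarity protein Llgl2 by 1.71 ± 0.11 and the scaffold Tjp1 by 1.47 ± 0.21, all without overlap. The junctional adhesion molecule F11r differed by 3.95 ± 0.40 on its brighter probe set, but only 1 of its 2 tested probe sets was called. Of 6 claudins tested across the lists only Cldn12 was called, at 0.66 ± 0.19 (adjusted p = 0.0103), and not without Type 1 line 2 (adjusted p = 0.0605) or among PGF lines alone (adjusted p = 0.155).

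Transcription factors of body position differed in both directions. Zic1, a zinc finger factor of the neural tube and dorsal mesoderm, read 9.18, 9.21 and 10.02 in the Type 1 lines, against 2.62 to 2.90 (median 2.73) in the Type 3 lines, a difference of 6.73 ± 1.00 (adjusted p = 2.20e-05). Hand2, a basic helix-loop-helix factor of lateral mesoderm, read 9.71, 7.82 and 9.51 in Type 1, against 3.87 to 4.19 with a median of 3.97 in Type 3. Gata6, a zinc finger factor of visceral mesoderm and endoderm, read 11.22, 11.05 and 11.08 in Type 1, against 5.91 to 6.74 with a median of 6.44 in Type 3. All 3 genes separated the groups completely, with differences of 5.01 ± 0.41 for Hand2 and 4.75 ± 0.29 for Gata6. With the mean of each gene's probe sets they were 1.93 for Hand2 and 3.11 for Gata6. Osr1, a factor of intermediate and lateral mesoderm that sits on the same list, went the other way, with 4.41, 5.45 and 5.47 in the Type 1 lines, against 8.87 to 10.50 (median 9.88) in the Type 3 lines (-4.72 ± 0.34, adjusted p = 4.23e-10). Of 13 tested visceral and coelomic factors 6 were higher and 3 lower, with a median of 1.01 (7 and 2 among PGF lines alone), and 4 of the 13 passed the filter only through Type 1. Zic1 and Hand2 were below the table median in every Type 3 line. Of 8 subcutaneous and limb patterning genes 0 were higher and 6 lower, with a median of -2.54 (0 and 5 among PGF lines alone). The short stature homeobox gene Shox2 read 3.83, 6.39 and 4.64 in the Type 1 lines, against 9.20 to 11.12 (median 10.00) in the Type 3 lines. The paired-related homeobox gene Prrx2 read 4.61, 5.28 and 4.98 in Type 1, against 9.01 to 10.61 with a median of 9.92 in Type 3. Their differences were -5.11 ± 0.45 (adjusted p = 1.12e-08) and -4.94 ± 0.51 (adjusted p = 1.54e-07), and no lines overlapped. Prrx1, a homeobox gene of limb and craniofacial mesenchyme, remained well above the table median in Type 1 at 8.75, 8.81 and 8.32, against 10.92 to 12.10 in Type 3 (-2.78 ± 0.24). Twist2 differed by -2.52 ± 0.38 and Tbx15 by -2.56 ± 0.50, although only 1 of 2 tested probe sets of Tbx15 was called. Among PGF lines alone the differences were 6.73 for Zic1, 4.68 for Gata6, -4.31 for Osr1 and -4.91 for Shox2.

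Of 20 tested Hox genes, which mark position along the body axis, 2 were higher, 3 were lower and 15 were not called, with a median of -0.093, where 34.7% of all genes were called. The largest call was Hoxc13 at -1.31 ± 0.21 (adjusted p = 6.06e-05), with 6.23, 6.57 and 6.46 in the Type 1 lines, against 7.33 to 8.15 (median 7.72) in the Type 3 lines. Hoxa9 and Hoxa10 were low in 1 clone only, Type 1 line 1, which also had the highest actin 3′ minus 5′ signal. Hoxa9 read 3.84, 9.58 and 9.59 in Type 1, against 8.61 to 9.29 with a median of 8.76 in Type 3. Hoxa10 read 3.39, 8.13 and 8.00 in Type 1, against 7.06 to 8.24 with a median of 7.55 in Type 3. Type 1 line 1 (PGF2-8) was thus far below every Type 3 line in both genes, while Type 1 lines 2 and 3 lay above all Type 3 lines in Hoxa9 and within them in Hoxa10. Neither gene was called, and without Type 1 line 1 the differences were 0.72 for Hoxa9 and 0.49 for Hoxa10.

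**Figure D3:**
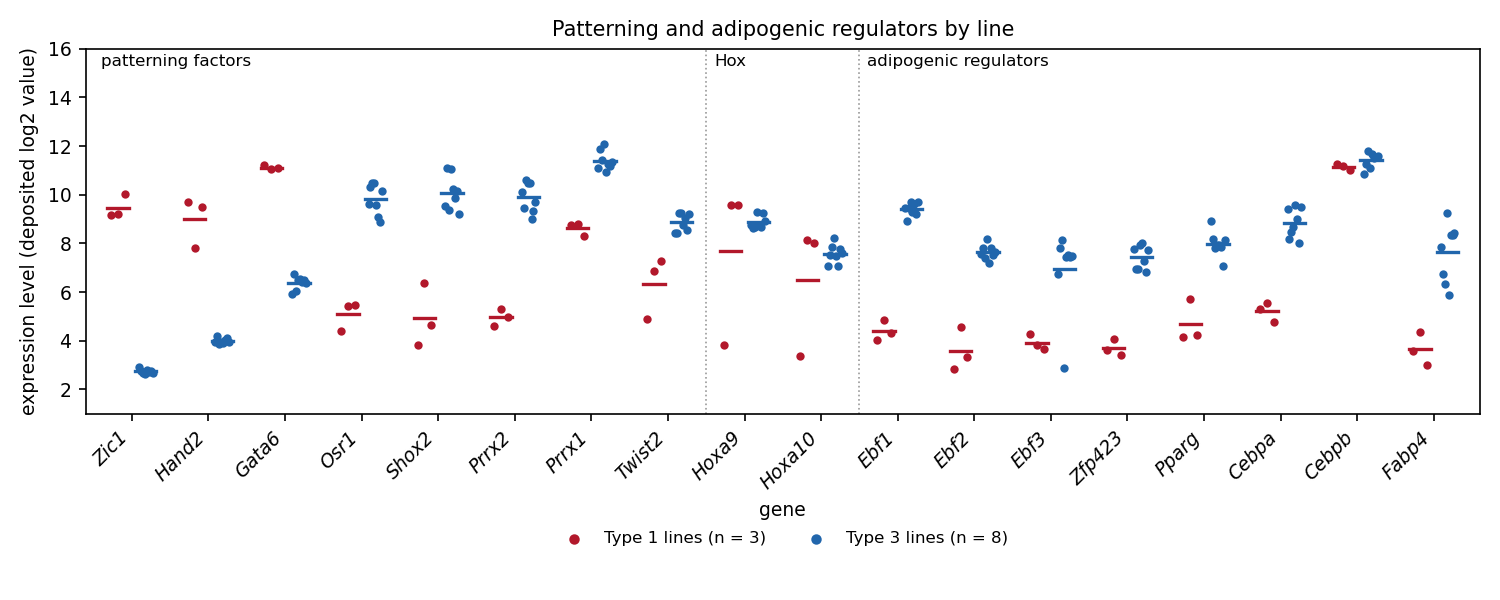
Deposited log2 level (vertical axis) of patterning factors, 2 Hox genes and regulators of fat cell formation in each of the 3 Type 1 lines (red) and 8 Type 3 lines (blue); each point is 1 line and the bar is the group mean. Zic1, Hand2 and Gata6 are higher in Type 1, Osr1, Shox2, Prrx2, Ebf1, Ebf2 and Zfp423 are lower without overlap, Cebpb overlaps, and Hoxa9 and Hoxa10 each have 1 low Type 1 line.

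Most regulators of fat cell formation were lower in Type 1. Of 22 tested adipogenic transcription factors 0 were higher, 15 were lower and 7 were not called, with a median of -1.28 (0 and 10 among PGF lines alone), beside 0.0083 over all genes. Early B-cell factor 1 (Ebf1), which acts early in the fat cell lineage, read 4.05, 4.86 and 4.31 in the Type 1 lines, against 8.91 to 9.72 (median 9.46) in the Type 3 lines, a difference of -5.02 ± 0.26 (adjusted p = 2.16e-12). Its relative Ebf2, known for brown and beige fat, read 2.85, 4.54 and 3.33 in Type 1, against 7.20 to 8.18 with a median of 7.60 in Type 3 (-4.07 ± 0.52, adjusted p = 3.63e-06). The groups were apart in both genes. Ebf3 differed by -3.02 ± 0.75 (adjusted p = 0.00336), but Type 3 line 4 read 2.87, below all 3 Type 1 lines at 4.28, 3.81 and 3.67. Zfp423, a zinc finger factor that commits cells to the fat lineage, read 3.62, 4.06 and 3.40 in the Type 1 lines, against 6.82 to 8.02 (median 7.51) in the Type 3 lines (-3.74 ± 0.54, adjusted p = 1.43e-05). Pparg, the nuclear receptor at the centre of fat cell formation, read 4.17, 5.73 and 4.22 in Type 1, against 7.09 to 8.93 with a median of 7.94 in Type 3. Its partner Cebpa read 5.31, 5.55 and 4.78 in Type 1, against 8.03 to 9.59 with a median of 8.84 in Type 3. In neither gene did a Type 1 line reach the lowest Type 3 line, and the differences were -3.28 ± 0.45 (adjusted p = 7.80e-06) and -3.64 ± 0.52 (adjusted p = 1.48e-05). Rxra, the receptor that pairs with Pparg, differed by -1.50 ± 0.17 and Klf15 by -1.76 ± 0.36. Cebpb, which acts upstream of Pparg at the start of differentiation, read 11.25, 11.20 and 11.01 in the Type 1 lines, against 10.87 to 11.78 (median 11.54) in the Type 3 lines and was not called (adjusted p = 0.421). Among PGF lines alone Ebf1 differed by -5.06, Pparg by -3.05 and Cebpa by -3.81.

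Of 18 lipid genes tested, 2 were higher and 5 lower, with a median of -0.19, and 3 were lower without Type 1 line 2, without Type 1 line 3 or without Type 3 line 4. The fatty acid carrier Fabp4 read 3.60, 4.38 and 3.01 in the Type 1 lines, against 5.90 to 9.23 (median 8.09) in the Type 3 lines, a difference of -3.98 ± 0.80 (adjusted p = 0.000529; -1.93 when its probe sets were averaged), and its relative Fabp5 differed by -2.28 ± 0.37 (adjusted p = 6.06e-05). The triglyceride lipase Pnpla2 was higher, with 8.01, 7.59 and 7.54 in Type 1, against 6.13 to 7.24 with a median of 6.58 in Type 3 (1.04 ± 0.20, adjusted p = 0.000443). The other 11 tested members were not called. Adipoq and Lep did not pass the filter in this series. Adipoq still read up to 6.48 in Type 3 (median 3.20), against 3.14 to 3.36 in Type 1.

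Preadipocyte and fibroblast genes did not move as a block. Of 18 progenitor genes tested, 5 were higher and 4 lower, with a median of -0.047, and the counts were 3 and 2 both without Type 1 line 1 and without Type 1 line 3. Pdgfrb, a receptor of mesenchymal cells, read 8.82, 9.11 and 8.86 in the Type 1 lines, against 10.82 to 12.27 (median 11.43) in the Type 3 lines, which is -2.51 ± 0.25 (adjusted p = 7.88e-08) with no overlap. Pdgfra read 11.49, 8.49 and 9.40 in Type 1, against 10.98 to 12.50 with a median of 11.59 in Type 3. Type 1 line 1 lay within the Type 3 range there, and the call (-1.83 ± 0.59, adjusted p = 0.0197) was lost without Type 1 line 2 (adjusted p = 0.18) or Type 1 line 3 (0.0898), among PGF lines alone (adjusted p = 0.113), and with depot (0.0625), clone prefix (0.0645) or differentiation score (0.0672) in the model. The adhesion molecule Vcam1 was higher, with 12.87, 11.92 and 12.42 in Type 1, against 10.30 to 11.62 with a median of 10.99 in Type 3 (1.41 ± 0.29, adjusted p = 0.000713). Cd34 had 8.92, 9.43 and 10.17 in Type 1 and 4.89 to 10.85 in Type 3 (adjusted p = 0.17), and Dlk1 6.13, 5.74 and 7.45 in Type 1 and 5.61 to 8.49 in Type 3 (adjusted p = 0.534), and neither preadipocyte marker was called, although Cd34 was with array weights (adjusted p = 0.000613) or differentiation score in the model (0.00772). Of 9 tested fibroblast markers 0 were higher and 4 lower, with a median of -0.65. S100a4, a calcium-binding protein of fibroblasts, read 11.40, 11.06 and 9.63 in the Type 1 lines, against 13.74 to 14.30 (median 14.06) in the Type 3 lines (-3.37 ± 0.23, adjusted p = 2.29e-10). The intermediate filament vimentin (Vim) read 12.71, 13.39 and 13.14 in Type 1, against 13.46 to 13.93 with a median of 13.76 in Type 3 (-0.65 ± 0.11). Both Type 1 ranges lay below the Type 3 ranges, yet both genes were far above the table median in every line.

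Several contractile genes were higher in Type 1, and the number of calls depended on single clones. Of 17 tested smooth muscle genes 8 were higher and 1 lower, with a median of 0.81. The higher count was 4 without Type 1 line 2, 4 without Type 1 line 3 and 4 among PGF lines alone. Tagln, an actin-binding protein of smooth muscle, read 12.27, 13.08 and 13.24 in the Type 1 lines, against 6.90 to 9.30 (median 8.45) in the Type 3 lines, a difference of 4.63 ± 0.84 (adjusted p = 0.000209). Smoothelin (Smtn), a cytoskeletal protein of contractile cells, read 8.95, 8.32 and 8.68 in Type 1, against 6.12 to 6.54 with a median of 6.23 in Type 3 (2.34 ± 0.20, adjusted p = 9.86e-09), and Pdlim7, a filament scaffold, differed by 1.40 ± 0.20. These 3 genes showed no overlap. Acta2, smooth muscle actin, read 12.07, 13.45 and 13.41 in Type 1, against 9.36 to 11.89 with a median of 10.91 in Type 3. Its call (2.17 ± 0.76, adjusted p = 0.0303) was lost without Type 1 line 2 (adjusted p = 0.112), Type 1 line 3 (0.116) or Type 3 line 5 (0.0511) and among PGF lines alone (adjusted p = 0.18). Myl9, a myosin light chain, read 9.98, 11.33 and 11.52 in Type 1, against 7.73 to 9.70 with a median of 8.93 in Type 3, and its call (2.17 ± 0.80, adjusted p = 0.0395) was lost without Type 1 line 2 (adjusted p = 0.125), Type 1 line 3 (0.152), Type 3 line 2 (0.0505), Type 3 line 4 (0.0567), Type 3 line 5 (0.0632) or Type 3 line 6 (0.055) and among PGF lines alone (adjusted p = 0.247). Both calls were also lost with depot in the model (adjusted p = 0.0736 for Acta2 and 0.0643 for Myl9), with the clone prefix (0.0924 and 0.0767) and with the differentiation score (0.128 and 0.174). In Acta2, Myl9 and Tagln, Type 1 line 1 was the lowest of its group, and in Myl9 it lay just above the highest Type 3 line.

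Genes known as targets of the mechanically regulated coactivators YAP and TAZ were partly higher. Of 19 tested, 7 were higher and 2 lower, with a median of 0.21, and 4 were higher without Type 1 line 3. Ccn2, a secreted matricellular protein, read 11.88, 12.39 and 12.21 in the Type 1 lines, against 5.40 to 10.14 (median 8.42) in the Type 3 lines (3.92 ± 1.00, adjusted p = 0.00419), and its relative Ccn1 was not called (0.62, adjusted p = 0.169). Among PGF lines alone Ccn2 had 3.81 (adjusted p = 0.0622). Wwc1, an upstream regulator of the pathway, read 7.99, 8.16 and 8.48 in Type 1, against 5.83 to 6.65 with a median of 6.31 in Type 3 (2.00 ± 0.18, adjusted p = 1.59e-08). The LIM protein Ajuba read 9.68, 10.09 and 10.14 in Type 1, against 7.63 to 8.42 with a median of 8.17 in Type 3 (1.87 ± 0.18, adjusted p = 4.01e-08). The groups did not overlap in these 3 called genes. Ankrd1, a nuclear ankyrin repeat protein, read 6.57, 8.98 and 7.59 in Type 1, against 4.65 to 6.71 with a median of 5.48 in Type 3, and its call (2.09 ± 0.78, adjusted p = 0.0409) was lost without Type 1 line 2 (adjusted p = 0.229), Type 1 line 3 (0.0922), Type 3 line 2 (0.06), Type 3 line 4 (0.0607), Type 3 line 5 (0.0642), Type 3 line 7 (0.0522) or Type 3 line 8 (0.0563), with 1 of its 2 tested probe sets called. It was also lost with depot (adjusted p = 0.123), clone prefix (0.16) or differentiation score (0.108) in the model.

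The windows of Ankrd1 and Myl9 are shown because both genes belong to these groups and hold the motifs looked for. In Ankrd1 (chr19:36119845-36120094, minus strand) the TEAD core GGAATG occurs 210 and 123 bases before the start, in capitals. In Myl9 (chr2:156775214-156775463, plus strand) capitals mark a CArG box, the site of serum response factor, 161 bases before the start.
Ankrd1: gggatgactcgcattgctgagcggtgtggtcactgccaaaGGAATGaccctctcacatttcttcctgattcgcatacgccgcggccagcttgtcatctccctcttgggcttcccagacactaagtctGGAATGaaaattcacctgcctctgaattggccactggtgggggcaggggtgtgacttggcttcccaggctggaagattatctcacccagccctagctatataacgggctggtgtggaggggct
Myl9: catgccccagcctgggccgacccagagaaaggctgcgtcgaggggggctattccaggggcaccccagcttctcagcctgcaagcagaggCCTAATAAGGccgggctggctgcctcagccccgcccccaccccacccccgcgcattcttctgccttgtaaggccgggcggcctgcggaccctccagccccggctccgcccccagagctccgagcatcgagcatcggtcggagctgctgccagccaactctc
The TEAD core was found in 3 of 6 windows of the YAP and TAZ targets called higher, in 5 of 7 windows of the smooth muscle genes called higher and in 0 of 17 windows of the adipogenic factors called lower, against 12.6% of all windows. A CArG box was found in 2 of 7 smooth muscle windows, against 1.47% of all windows. The EBF motif CCCNNGGG, a palindrome, was in 4 of 17 adipogenic windows, 2 of 8 mesothelial, 2 of 6 YAP and TAZ and 2 of 7 smooth muscle windows, against 11.8% of all windows. The 1 window of a YAP and TAZ target called lower held both the TEAD core and the EBF motif. The windows of Krt18, searched for the TEAD core, and of Plpp3 and Fgf7, searched for the EBF motif, had no match and are not shown. Other windows with a match are not shown either. A gene can have several windows, and the letters say nothing of binding in these cells.

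Of 25 collagens tested 5 were higher and 6 lower, shares near the 18.9% and 15.8% of all genes, with a median of -0.16, and 3 were higher without Type 1 line 2 or without Type 1 line 3. Of the 5, Col8a2 and Col4a6 passed the filter only through Type 1. Col8a2, a network-forming collagen of basement membranes, read 9.09, 7.95 and 8.71 in the Type 1 lines, against 2.89 to 3.08 (median 2.91) in the Type 3 lines, a difference of 5.63 ± 0.15 (adjusted p = 2.17e-17). Col4a6, a basement membrane chain, read 7.71, 7.45 and 7.74 in Type 1, against 4.38 to 5.05 with a median of 4.64 in Type 3 (3.00 ± 0.13, adjusted p = 1.15e-13), and neither gene overlapped between the groups. Col4a1, the major chain of that collagen family, read 11.40, 11.41 and 11.64 in Type 1, against 9.13 to 10.84 with a median of 9.98 in Type 3 (1.50 ± 0.39, adjusted p = 0.00456), with 1.38 among PGF lines alone (adjusted p = 0.0582). Col6a3 was much lower, at 7.03, 6.85 and 5.81 in the Type 1 lines, against 10.34 to 12.52 (median 11.78) in the Type 3 lines (-5.07 ± 0.67, adjusted p = 4.68e-06). Its partner chains Col6a1 (-0.95, adjusted p = 0.124) and Col6a2 (-0.89, adjusted p = 0.228) were not called. Col5a1, a regulator of fibril assembly, read 8.98, 9.90 and 9.54 in Type 1, against 11.10 to 12.04 with a median of 11.50 in Type 3 (-2.07 ± 0.21, adjusted p = 8.34e-08). The fibrillar chain Col1a2 was not called, with a difference of -0.19 (adjusted p = 0.576).

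Decorin (Dcn), a small proteoglycan that binds collagen and growth factors, read 13.32, 11.23 and 12.21 in the Type 1 lines, against 4.81 to 12.72 (median 6.63) in the Type 3 lines. Type 3 line 4 gave the 12.7, above 2 of the 3 Type 1 lines, and the other 7 Type 3 lines lay between 4.81 and 7.62. The difference was 5.02 ± 1.25 (adjusted p = 0.00342), and 6.21 among PGF lines alone, which leave that line out. Biglycan (Bgn), its close relative, was lower, with 12.52, 12.39 and 11.99 in Type 1, against 12.80 to 13.49 with a median of 13.14 in Type 3 (-0.83 ± 0.18, adjusted p = 0.00108). Of 8 small leucine-rich proteoglycans 1 was higher and 2 were lower. Nidogen 1 (Nid1), which links laminin and collagen networks, read 8.81, 9.96 and 9.71 in the Type 1 lines, against 11.71 to 12.71 (median 12.24) in the Type 3 lines (-2.70 ± 0.25, adjusted p = 2.72e-08). The laminin chain Lama5 read 8.53, 8.32 and 8.61 in Type 1, against 6.40 to 7.47 with a median of 6.91 in Type 3 (1.56 ± 0.27, adjusted p = 0.000117). These moved in opposite directions without overlap. Of 14 basement membrane genes 2 were higher and 4 lower.

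Enzymes that cut or link the matrix went both ways, 6 higher and 6 lower of 24. Among these 24, 1 passed the filter on low values only through Type 1, and Mmp13 was below the table median in every Type 3 line. The collagenase Mmp13 read 6.82, 9.66 and 8.65 in the Type 1 lines, against 2.62 to 3.05 (median 2.84) in the Type 3 lines (5.53 ± 0.80, adjusted p = 1.51e-05). Transglutaminase 2 (Tgm2), which crosslinks proteins, read 11.91, 9.91 and 10.45 in Type 1, against 5.14 to 7.03 with a median of 5.83 in Type 3 (4.74 ± 0.71, adjusted p = 2.21e-05). Type 3 lines were uniformly low for Mmp13, and neither gene overlapped. The inhibitor Timp3 differed by 1.81 ± 0.37 and its relative Timp1 by -1.01 ± 0.23. Mmp19 was lower, with 5.19, 4.59 and 4.70 in Type 1, against 6.42 to 6.95 with a median of 6.49 in Type 3 (-1.76 ± 0.20, adjusted p = 7.44e-07).

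Among secreted agonists of the Wnt pathway, Rspo1 was higher and Rspo3 lower in Type 1. Of 37 tested Wnt pathway genes 9 were higher and 9 lower, with a median of -0.11 (7 and 5 among PGF lines alone, and 6 and 5 without Type 1 line 3). Among these 37, 3 passed the filter on low values only through Type 1. Rspo1 and Ror1 were below the table median in every Type 3 line. R-spondins are secreted proteins that raise the level of Wnt receptors. Rspo1 read 10.88, 9.34 and 9.43 in the Type 1 lines, against 3.68 to 4.15 (median 3.96) in the Type 3 lines, a difference of 5.94 ± 0.21 (adjusted p = 1.48e-15), and it is also a member of the mesothelial list. Rspo3 read 6.74, 6.69 and 7.54 in the Type 1 lines, against 9.08 to 9.62 (median 9.47) in the Type 3 lines, a difference of -2.44 ± 0.38 (adjusted p = 4.03e-05). All Type 1 lines lay above Type 3 in the first and below it in the second. Rspo2 read 4.40, 5.19 and 4.01 in Type 1, against 5.96 to 8.12 with a median of 6.86 in Type 3, and its call (-2.41 ± 0.83, adjusted p = 0.0279) was lost without Type 1 line 1 (adjusted p = 0.0872) or Type 1 line 3 (0.113), among PGF lines alone (adjusted p = 0.256), and with depot (0.0755) or clone prefix (0.0801) in the model. Lgr4, a receptor for R-spondins, was lower, with 9.09, 9.87 and 9.06 in Type 1, against 10.17 to 11.89 with a median of 11.04 in Type 3 (-1.72 ± 0.33, adjusted p = 0.000351).

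Among Wnt ligands and receptors, Wnt16 was lower (-2.87 ± 0.62, adjusted p = 0.00105) and Wnt9a higher (1.94 ± 0.18, adjusted p = 2.49e-08), while Wnt5a was not called (1.04, adjusted p = 0.131). The receptor Fzd1 read 9.21, 9.18 and 9.23 in the Type 1 lines, against 10.44 to 11.31 (median 11.09) in the Type 3 lines (-1.79 ± 0.31, adjusted p = 0.000128). Fzd6 went the other way at 9.91, 9.74 and 9.68 in Type 1, against 6.13 to 7.68 with a median of 7.24 in Type 3 (2.76 ± 0.31, adjusted p = 5.56e-07), with 1 of its 2 tested probe sets called. Ror1, a receptor tyrosine kinase for noncanonical Wnt, read 4.87, 7.80 and 7.48 in Type 1, against 3.12 to 4.40 with a median of 3.49 in Type 3, so the groups did not overlap, with Type 1 line 1 nearest to Type 3 (3.15 ± 0.61, adjusted p = 0.000422). Its relative Ror2 read 6.93, 6.04 and 5.44 in Type 1, against 6.98 to 8.04 with a median of 7.52 in Type 3, and that call (-1.32 ± 0.37, adjusted p = 0.00798) was lost without Type 1 line 3 (adjusted p = 0.0884) and among PGF lines alone (adjusted p = 0.0657). Axin2, a feedback target of beta-catenin signalling, was higher, with 7.04, 6.42 and 6.87 in the Type 1 lines, against 4.77 to 5.29 (median 5.02) in the Type 3 lines (1.73 ± 0.13, adjusted p = 6.26e-10). Dkk3, a secreted dickkopf family protein, was lower, with 5.64, 5.08 and 5.06 in Type 1, against 8.60 to 10.23 with a median of 9.24 in Type 3 (-4.15 ± 0.52, adjusted p = 2.30e-06). Neither gene overlapped between the groups, and among PGF lines alone the differences were 1.80 for Axin2 and -3.69 for Dkk3.

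In the BMP and TGF-beta family both directions occurred among ligands, while the antagonists and coreceptors named here were lower. Of 35 genes tested 4 were higher and 8 lower, with a median of 0.099, and 7 were higher without Type 3 line 4. Among these 35, 1 passed the filter on low values only through Type 1, and Bmp4 was below the table median in every Type 3 line. Bmp4, a ligand that patterns mesoderm and can commit cells to the fat lineage, read 11.18, 11.08 and 10.80 in the Type 1 lines, against 3.65 to 4.44 (median 3.95) in the Type 3 lines, a difference of 7.05 ± 0.36 (adjusted p = 1.07e-12) or a 132-fold ratio. Tgfb3 was higher too, with 9.07, 8.76 and 8.06 in Type 1, against 5.35 to 6.83 with a median of 5.67 in Type 3 (2.77 ± 0.27, adjusted p = 5.94e-08). Gdf10, a related ligand, read 4.18, 5.49 and 7.32 in the Type 1 lines, against 9.70 to 12.07 (median 10.56) in the Type 3 lines (-5.13 ± 0.79, adjusted p = 3.07e-05). Gremlin 1 (Grem1), a secreted antagonist that binds Bmp4, read 4.59, 7.57 and 5.40 in Type 1, against 8.50 to 11.83 with a median of 9.98 in Type 3 (-4.06 ± 0.60, adjusted p = 1.91e-05). Inhbb, a subunit of activin B, read 6.08, 7.11 and 7.22 in Type 1, against 10.19 to 11.43 with a median of 10.57 in Type 3 (-3.91 ± 0.85, adjusted p = 0.00116). Each of these 3 genes was lower in all Type 1 lines than in any Type 3 line. Tgfbr3, a coreceptor also called betaglycan, read 10.05, 9.32 and 9.34 in the Type 1 lines, against 12.75 to 13.31 (median 13.01) in the Type 3 lines (-3.42 ± 0.26, adjusted p = 1.69e-09). Ltbp1, which stores latent TGF-beta in the matrix, read 3.94, 6.57 and 4.25 in Type 1, against 9.22 to 10.03 with a median of 9.79 in Type 3 (-4.79 ± 0.46, adjusted p = 5.06e-08), or -2.19 when its probe sets were averaged. The signalling receptors Tgfbr1, Tgfbr2 and Bmpr2 were not called, although array weights gave each a call, as did leaving out Type 3 line 4 for Bmpr2 (adjusted p = 0.0379). Bmpr1a was higher by a smaller amount (0.74 ± 0.14, adjusted p = 0.000334), with 5 of 6 tested probe sets called and 1 of opposite sign. The BMP-induced genes Id1 (0.90, adjusted p = 0.331) and Id3 (0.57, adjusted p = 0.46) were not called.

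**Figure D4:**
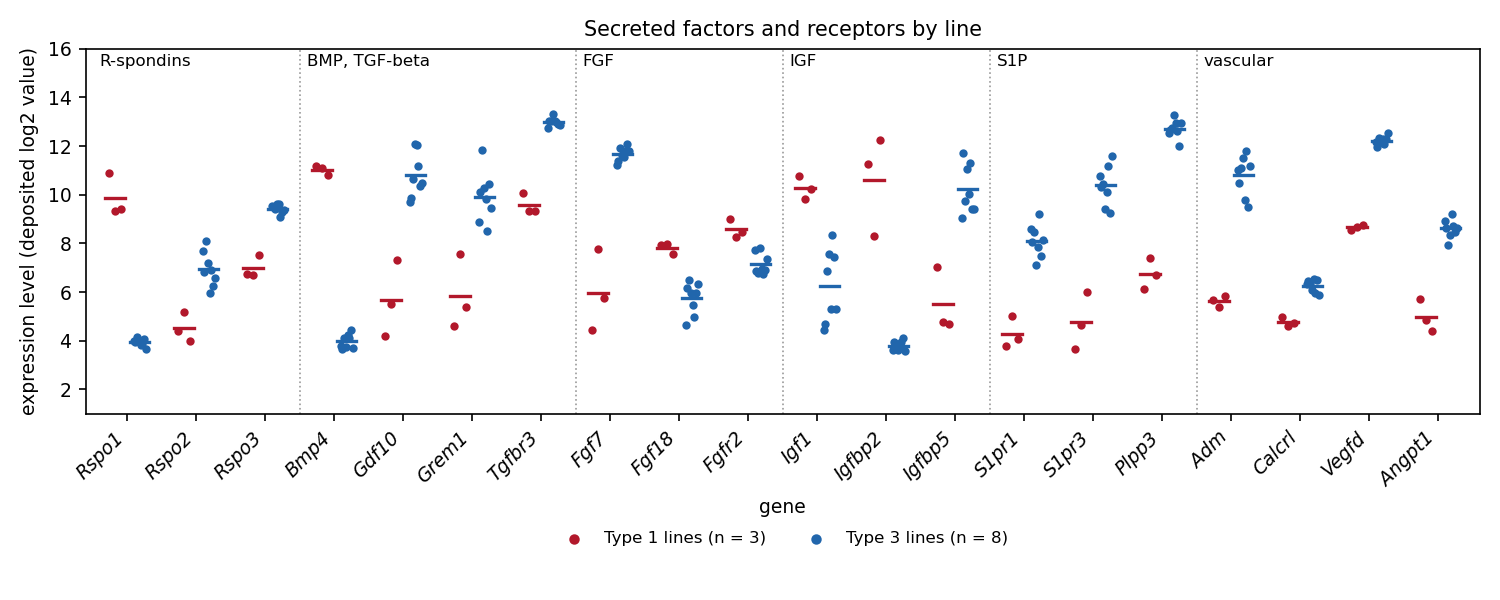
Deposited log2 level (vertical axis) of secreted factors and receptors in each of the 3 Type 1 lines (red) and 8 Type 3 lines (blue); each point is 1 line and the bar is the group mean. Rspo1, Bmp4, Fgf18, Fgfr2, Igf1 and Igfbp2 are higher in Type 1, and the other 14 genes shown are lower, with Type 1 lines spread over several log2 units in Gdf10, Grem1, Fgf7, Igfbp2 and S1pr3.

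FGF genes were led by Fgf7, a growth factor that mesenchyme sends to epithelium, at 4.43, 7.77 and 5.75 in the Type 1 lines, against 11.24 to 12.10 (median 11.72) in the Type 3 lines. The difference was -5.70 ± 0.40 (adjusted p = 3.03e-10). Its receptor gene Fgfr2 was higher, with 8.99, 8.25 and 8.48 in Type 1, against 6.74 to 7.83 with a median of 6.93 in Type 3 (1.43 ± 0.27, adjusted p = 0.000325). The ligand Fgf18 was also higher, with 7.94, 7.96 and 7.58 in Type 1, against 4.64 to 6.50 with a median of 5.96 in Type 3 (2.07 ± 0.46, adjusted p = 0.00134). None of these 3 overlapped. Dusp6, a phosphatase induced by FGF and ERK signalling, differed by 2.15 ± 0.55 (adjusted p = 0.00412), and by 1.96 among PGF lines alone (adjusted p = 0.0887). Of 16 tested genes 6 were higher and 3 lower, with a median of 0.31. Fgf10, a close relative of Fgf7, was not called (-1.07, adjusted p = 0.108).

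In the IGF pathway Igf1, the ligand, read 10.77, 9.84 and 10.26 in the Type 1 lines, against 4.44 to 8.37 (median 6.09) in the Type 3 lines (4.04 ± 0.85, adjusted p = 0.000843). Igfbp2, a secreted binding protein, read 11.25, 8.29 and 12.25 in Type 1, against 3.56 to 4.12 with a median of 3.78 in Type 3, with Type 1 line 2 lowest of its group (6.80 ± 0.51, adjusted p = 1.15e-09). Igfbp5 read 7.05, 4.78 and 4.67 in Type 1, against 9.04 to 11.71 with a median of 9.89 in Type 3 (-4.72 ± 1.00, adjusted p = 0.000919), although only 1 of its 2 tested probe sets was called. Of 15 tested genes 5 were higher and 3 lower, with a median of -0.00078, and 1 of the 15 passed the filter on low values only through Type 1. Igfbp2 was below the table median in every Type 3 line. Grb10, an imprinted adaptor that dampens insulin and IGF receptors, read 11.78, 11.43 and 11.71 in the Type 1 lines, against 3.44 to 7.61 (median 3.62) in the Type 3 lines (7.52 ± 1.21, adjusted p = 5.64e-05). The difference of Grb10 was 3.71 when its probe sets were averaged. Type 3 line 7 held the 7.61, and the other 7 Type 3 lines lay between 3.44 and 3.84. Of 15 imprinted genes tested 2 were higher, Grb10 and Peg3 (2.65 ± 0.23, adjusted p = 1.33e-08), and 5 were lower, among them Ndn (-2.15 ± 0.32, adjusted p = 2.33e-05), a protein that restrains proliferation in precursors, and Gnas (-0.47 ± 0.073, adjusted p = 3.28e-05). The other 8 were not called, and the median was -0.45.

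Most receptors and enzymes of lysophospholipid signalling were lower in Type 1. Of 15 tested genes 1 was higher and 10 were lower, with a median of -1.20 (1 and 8 among PGF lines alone), and all 10 were lower without overlap. S1pr3, a receptor for sphingosine 1-phosphate, read 3.67, 4.64 and 6.01 in the Type 1 lines, against 9.24 to 11.59 (median 10.38) in the Type 3 lines, a difference of -5.61 ± 0.71 (adjusted p = 2.71e-06), with 2 of its 3 tested probe sets called. S1pr1, the related receptor best known from vessels and lymphocytes, read 3.76, 5.00 and 4.06 in Type 1, against 7.12 to 9.19 with a median of 8.08 in Type 3 (-3.83 ± 0.43, adjusted p = 4.53e-07), and S1pr2 differed by -1.11 ± 0.25 (adjusted p = 0.00145). Lpar1, a receptor for lysophosphatidic acid, read 8.61, 9.00 and 7.86 in the Type 1 lines, against 10.03 to 10.74 (median 10.39) in the Type 3 lines (-1.94 ± 0.23, adjusted p = 1.02e-06). Lpar4 differed by -2.22 ± 0.46 (-1.43 without Type 1 line 1), and Lpar2 was the exception, higher by 0.89 ± 0.14 (adjusted p = 4.01e-05). Plpp3, a phosphatase at the cell surface that breaks down both lipids, read 6.14, 7.40 and 6.69 in the Type 1 lines, against 11.99 to 13.27 (median 12.70) in the Type 3 lines (-5.97 ± 0.34, adjusted p = 9.72e-12). Plpp1 read 10.15, 10.88 and 10.51 in Type 1, against 11.50 to 12.11 with a median of 11.63 in Type 3 (-1.20 ± 0.18). Pla1a, a phospholipase that releases lysophosphatidylserine, read 4.98, 6.61 and 4.93 in Type 1, against 10.95 to 11.93 with a median of 11.67 in Type 3, a 65.3-fold ratio (-6.03 ± 0.59, adjusted p = 6.25e-08).

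Vascular genes were more often lower than higher in Type 1, with 12 lower and 5 higher of 28, with a median of -0.69 (9 lower and 4 higher among PGF lines alone). Adrenomedullin (Adm), a vasodilator peptide, read 5.66, 5.39 and 5.86 in the Type 1 lines, against 9.51 to 11.80 (median 11.06) in the Type 3 lines (-5.16 ± 0.60, adjusted p = 8.37e-07). Its receptor gene Calcrl read 4.96, 4.61 and 4.71 in Type 1, against 5.86 to 6.54 with a median of 6.33 in Type 3 (-1.49 ± 0.27, adjusted p = 0.000161). Angiopoietin 1 (Angpt1) read 5.71, 4.85 and 4.40 in the Type 1 lines, against 7.95 to 9.21 (median 8.63) in the Type 3 lines (-3.63 ± 0.35, adjusted p = 5.94e-08). Its receptor Tek, an endothelial marker, read 3.97, 4.19 and 4.26 in Type 1, against 5.77 to 9.48 with a median of 6.70 in Type 3 (-2.91 ± 0.77, adjusted p = 0.00545). In both pairs ligand and receptor transcripts were lower together without overlap. Vegfd, a lymphatic growth factor, read 8.54, 8.68 and 8.77 in Type 1, against 11.94 to 12.52 with a median of 12.22 in Type 3 (-3.56 ± 0.35, adjusted p = 6.10e-08). Hepatocyte growth factor (Hgf) read 4.70, 4.81 and 5.57 in Type 1, against 7.63 to 9.64 with a median of 8.34 in Type 3 (-3.41 ± 0.38, adjusted p = 4.63e-07). Thrombospondin 2 (Thbs2), an inhibitor of vessel growth, was lower as well, with 8.31, 9.69 and 6.97 in Type 1, against 12.57 to 13.58 with a median of 13.04 in Type 3 (-4.76 ± 0.46, adjusted p = 4.92e-08). Ptges, which makes prostaglandin E, differed by -3.92 ± 0.35 (adjusted p = 1.33e-08), while Ptgis, which makes prostacyclin, differed by 2.79 ± 0.51 (adjusted p = 0.000212). Endothelin 1 (Edn1), a vasoconstrictor, was higher, with 7.33, 7.06 and 7.34 in Type 1, against 4.77 to 5.22 with a median of 4.87 in Type 3 (2.33 ± 0.14, adjusted p = 1.54e-11). The guidance factor Sema3d read 9.12, 9.74 and 9.73 in the Type 1 lines, against 3.43 to 6.76 (median 4.09) in the Type 3 lines (5.03 ± 0.68, adjusted p = 7.40e-06), Sema3a differed by 2.36 ± 0.63, and Kdr, the main receptor of vascular endothelial growth factor, by 2.19 ± 0.45 (adjusted p = 0.000683). Of the 6 endothelial markers tested 2 were higher and 1 lower, and Pecam1, Cdh5 and Vwf did not pass the filter.

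Retinoid genes were headed by Aldh1a1, which makes retinoic acid, at 12.66, 12.41 and 12.12 in the Type 1 lines, against 5.58 to 9.39 (median 8.31) in the Type 3 lines (4.50 ± 0.75, adjusted p = 7.58e-05). Cyp26a1, which degrades it and is induced by it, read 8.32, 7.08 and 7.99 in Type 1, against 4.15 to 4.52 with a median of 4.29 in Type 3 (3.48 ± 0.17, adjusted p = 3.83e-13). Both were higher without overlap. Aldh1a2, a second synthetic enzyme and a mesothelial list member, read 10.41, 4.98 and 6.94 in Type 1, against 4.72 to 8.72 with a median of 6.53 in Type 3. Type 1 line 1 alone was above all Type 3 lines, the gene was not called (adjusted p = 0.54), and without that line the difference was -0.53. Of 17 retinoid genes 2 were higher and 4 lower, and 2 were lower without Type 1 line 1, without Type 1 line 3 or without Type 3 line 4. Among these 17, 1 passed the filter on low values only through Type 1, and Cyp26a1 was below the table median in every Type 3 line. Dhrs3 was called lower, by -1.75 (adjusted p = 0.0011). Adh1 was called lower too (-1.94, adjusted p = 0.0466), a call lost under 16 of 27 alternatives. Aldh1a3 read 3.43 to 3.57 in Type 1, against 3.84 to 7.96 in Type 3.

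Iron genes differed in both directions. Of 13 tested, 3 were higher and 6 lower, with a median of -0.44 (-0.11 without Type 1 line 1), and 1 was higher without Type 1 line 3. Scara5, a scavenger receptor that takes up ferritin, read 5.27, 4.15 and 3.93 in the Type 1 lines, against 7.91 to 11.55 (median 9.49) in the Type 3 lines (-5.27 ± 1.11, adjusted p = 0.000836). Hephaestin (Heph), a copper-containing ferroxidase, read 2.92, 4.30 and 3.30 in Type 1, against 6.85 to 9.08 with a median of 8.04 in Type 3 (-4.59 ± 1.26, adjusted p = 0.00725), and the metalloreductase Steap2 differed by -1.14 ± 0.21. Ferroportin (Slc40a1), the iron exporter, was higher, with 8.19, 6.96 and 7.23 in Type 1, against 4.84 to 6.28 with a median of 5.34 in Type 3 (2.07 ± 0.30, adjusted p = 1.37e-05). No line crossed between the groups in these 3 genes with printed levels. The transferrin receptor Tfrc was called higher (1.33 ± 0.47, adjusted p = 0.0327), a call that was lost without Type 1 line 2 (adjusted p = 0.121), Type 1 line 3 (0.109) or Type 3 line 5 (0.0517) and rested on 1 of 2 tested probe sets. It was also lost with depot (adjusted p = 0.106), clone prefix (0.103) or differentiation score (0.0554) in the model.

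Interferon-induced genes were high in both groups, which were both grown with interferon gamma. Of 27 interferon gamma-induced and antigen presentation genes 1 was higher and 1 lower, with a median of 0.35, and of 27 type I interferon-induced genes 2 were higher and 0 lower, with a median of 0.25 (0.087 without Type 3 line 4). The interferon gamma list averaged 10.8 to 10.9 in the Type 1 lines, against 10.5 to 11.0 in 7 Type 3 lines and 8.82 in Type 3 line 4 (SCF3-9). Without that line 4 genes of the interferon gamma list were higher and 2 lower, with a median of 0.089. Mx1, an antiviral gene, read 8.51, 6.72 and 7.09 in the Type 1 lines, against 4.56 to 9.31 (median 7.71) in the Type 3 lines and was not called (-0.08, adjusted p = 0.963). Cd274, the ligand of the PD-1 receptor, was higher, with 9.13, 8.98 and 9.38 in Type 1, against 5.19 to 8.26 with a median of 7.86 in Type 3 (1.62 ± 0.45, adjusted p = 0.00805), and Ifit2 was called higher (1.77 ± 0.48, adjusted p = 0.0068) but not without Type 1 line 1 (adjusted p = 0.0631) or among PGF lines alone (adjusted p = 0.0744).

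Chemokine genes had 2 higher and 5 lower of 19, with a median of -0.53. The scavenging chemokine receptor Ackr3 read 6.00, 4.83 and 5.32 in the Type 1 lines, against 9.39 to 11.03 (median 10.79) in the Type 3 lines (-5.21 ± 0.83, adjusted p = 4.93e-05). Ccl8, a monocyte attractant, read 6.98, 5.64 and 5.07 in Type 1, against 8.92 to 12.28 with a median of 10.67 in Type 3 (-4.82 ± 0.77, adjusted p = 4.67e-05). The neutrophil attractant Cxcl5 read 4.96, 3.15 and 3.61 in Type 1, against 5.41 to 10.25 with a median of 8.92 in Type 3 (-4.53 ± 1.22, adjusted p = 0.00625). All 3 were lower without overlap, although Type 3 lines spanned several log2 units. Cxcl16, a membrane-bound chemokine, was higher (1.58 ± 0.30, adjusted p = 0.000357; 1.01 without Type 1 line 1). Among inflammatory genes, 4 higher and 4 lower of 19, the alarmin Il33 read 8.98, 8.42 and 7.54 in the Type 1 lines, against 3.62 to 4.86 (median 3.94) in the Type 3 lines (4.28 ± 0.36, adjusted p = 7.40e-09). In this list 1 of the 19 passed the filter on low values only through Type 1, and Il33 was below the table median in every Type 3 line. The acute phase protein Saa3 read 14.46, 9.55 and 11.10 in Type 1, against 5.49 to 6.53 with a median of 5.82 in Type 3 (5.83 ± 1.16, adjusted p = 0.000495; adjusted p = 0.0519 among PGF lines alone). Csf1, the growth factor of macrophages, was lower (-1.41 ± 0.22, adjusted p = 3.59e-05), as was the interleukin 1 receptor Il1r1 (-1.41 ± 0.36, adjusted p = 0.00397).

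Glycolysis and acid transport genes had 4 higher and 3 lower of 18, with a median of 0.11, and 5 lower without Type 3 line 4. Hexokinase 1 (Hk1) was lower, with 8.19, 8.45 and 8.38 in the Type 1 lines, against 9.30 to 10.05 (median 9.78) in the Type 3 lines (-1.40 ± 0.14, adjusted p = 6.07e-08), and aldolase C (Aldoc) higher, with 10.65, 7.98 and 9.13 in Type 1, against 5.54 to 7.41 with a median of 6.51 in Type 3 (2.88 ± 0.62, adjusted p = 0.000989). The membrane carbonic anhydrase Car12 differed by 2.25 ± 0.31 (adjusted p = 7.89e-06) and the monocarboxylate transporter Slc16a1 by 0.91 ± 0.23 (adjusted p = 0.0047), a call lost without Type 1 line 1 (adjusted p = 0.0537). Of 20 cell cycle genes 5 were higher and 0 lower, with a median of 0.25, and 2 were higher without Type 1 line 1. The replication helicase subunit Mcm5 differed by 0.59 ± 0.10 (adjusted p = 0.000103), with 2 of its 3 tested probe sets called. The cell cycle list does not hold the D cyclins Ccnd1 and Ccnd2, which were called lower. Cyclin D1 (Ccnd1), which drives entry into the cycle, was lower, with 5.41, 9.54 and 9.29 in the Type 1 lines, against 10.66 to 11.89 (median 11.45) in the Type 3 lines (-3.28 ± 0.64, adjusted p = 0.000432). Without Type 1 line 1, the lowest, the difference was -1.95. Cyclin D2 (Ccnd2) read 8.40, 11.33 and 11.10 in Type 1, against 11.21 to 12.16 with a median of 11.63 in Type 3, and its call (-1.40 ± 0.39, adjusted p = 0.00751) was lost without Type 1 line 1 (adjusted p = 0.149) and among PGF lines alone (adjusted p = 0.133).

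Several of the largest differences lay outside the gene lists. Stk26, a kinase of the germinal centre family, had the largest, with 12.72, 11.94 and 12.17 in the Type 1 lines, against 3.51 to 4.06 (median 3.86) in the Type 3 lines (8.41 ± 0.43, adjusted p = 1.10e-12), a 341-fold ratio. Lratd2 read 11.24, 10.22 and 10.36 in Type 1, against 3.20 to 3.63 with a median of 3.40 in Type 3 (7.22 ± 0.33). Gabra4, a subunit of the GABA-A receptor, read 9.87, 9.90 and 9.93 in Type 1, against 2.71 to 3.18 with a median of 2.97 in Type 3 (6.91 ± 0.40). All 3 genes were uniformly low in Type 3. At the other end, Sned1, an extracellular matrix protein, read 4.03, 5.00 and 4.12 in the Type 1 lines, against 9.99 to 11.58 (median 11.23) in the Type 3 lines (-6.68 ± 0.68, adjusted p = 1.25e-07). Galnt13, an enzyme that starts O-linked glycosylation, read 2.99, 4.24 and 2.66 in Type 1, against 8.40 to 9.05 with a median of 8.67 in Type 3 (-5.40 ± 0.48). Ampd3, an AMP deaminase, read 5.73, 6.04 and 4.19 in Type 1, against 10.13 to 11.20 with a median of 10.68 in Type 3 (-5.37 ± 0.30). The gamma-synuclein gene Sncg differed by -5.35 ± 0.69, the glypican Gpc6 by -5.20 ± 0.58 and the secreted protein Srpx2 by -5.19 ± 0.69. Each of these 9 genes separated the groups without overlap. The 6 lower genes were called under all 27 alternatives. Stk26, Lratd2 and Gabra4, which were below the table median in every Type 3 line, were each called under 26. In the remaining alternative they were not among the genes tested.

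The 3 Type 1 clones differed from each other in a limited set of genes. A gene was counted for a line when it lay at least 2 log2 units from both other Type 1 lines and these lay within 1 of each other. Type 1 line 1 (PGF2-8) stood apart in 49 genes, 31 higher and 18 lower, Type 1 line 2 (PGF3-4) in 17 genes, 11 higher and 6 lower, and Type 1 line 3 (PGF3-11) in 5 genes, 3 higher and 2 lower, of 12307 tested. Hoxa9, Hoxa10 and Ccnd1 were among the 18 for line 1, and Krt8 was among the 6 for line 2. These counts describe single arrays and carry no test. Type 1 line 1 also had an actin 3′ minus 5′ signal of 1.58, against 0.68 and 0.71 in Type 1 lines 2 and 3. It was the only PGF2 clone of its group, while the others were PGF3 clones. The part of RNA integrity or clone prefix in its count was not tested.

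Depot and type overlap in these lines, since all 3 Type 1 lines and 4 of 8 Type 3 lines were PGF clones (Fisher's exact test, two-sided p = 0.236). With only the PGF lines compared, 3 Type 1 against 4 Type 3, 2924 genes were called (1585 higher and 1339 lower), and 2748 of them were among the 4274. Within the PGF2 clones (1 Type 1, 2 Type 3) and within the PGF3 clones (2 Type 1, 2 Type 3), 4251 of the 4274 genes had the same sign in both, as had 8896 of all 12307 genes. The 4274 were called with these same lines in the fit, so the shared sign is no independent result. Of 599 list genes tested, 268 were called over all lines, 185 of these also among PGF lines alone, and all 268 had the same sign there, in comparisons that share the PGF lines. A further 15 were called among PGF lines alone. For the lists whose PGF counts are not given above, genes higher and lower among PGF lines alone were 1 and 2 for Hox genes, 2 and 3 for lipid genes, 3 and 2 for progenitor genes, 1 and 3 for fibroblast markers, 3 and 0 for keratins and 4 and 1 for YAP and TAZ targets. The matrix lists gave 2 and 4 for collagens, 1 and 3 for small proteoglycans, 1 and 4 for basement membrane and 4 and 4 for proteases and crosslinkers. The signalling lists gave 3 and 6 for BMP and TGF-beta, 5 and 2 for FGF, 4 and 1 for IGF, 2 and 4 for imprinted genes and 2 and 3 for retinoid genes. The remaining lists gave 2 and 5 for iron, 1 and 0 for type I interferon, 4 and 1 for interferon gamma, 1 and 5 for chemokines, 3 and 3 for inflammation, 5 and 3 for glycolysis and 3 and 0 for the cell cycle.

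**Figure D5:**
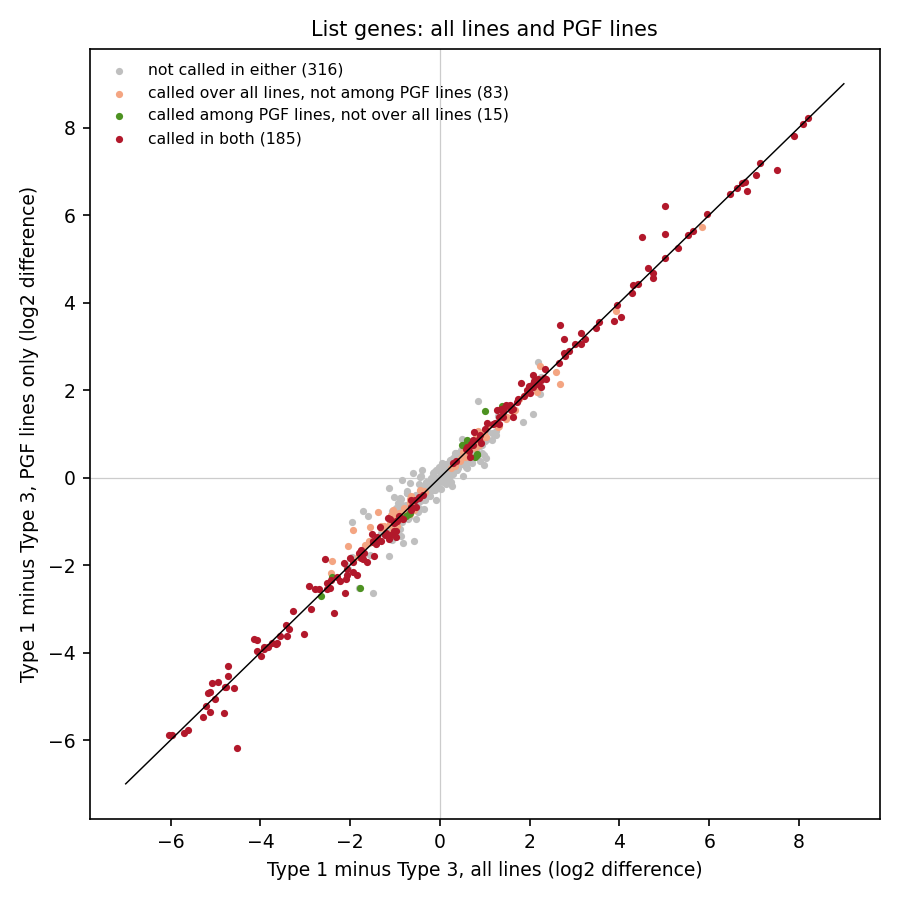
Type 1 minus Type 3 difference in log2 units for the 599 list genes tested, over all lines (horizontal axis) against PGF lines alone (vertical axis); each point is 1 gene, coloured by where it was called, and the line marks equal values. The 268 genes called over all lines lie close to the line on the same side of 0 on both axes.

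The labels give each line scores from 1 to 4 for differentiation and for acidification of the medium. The labels describe adipogenic capacity as read from Oil Red O staining of lipid after induction. The differentiation score was 2 in all 3 Type 1 lines and averaged 3.00 ± 0.756 in the Type 3 lines (SD, n = 8), a difference of -1 (exact two-sided permutation p = 0.121 over 165 arrangements, the smallest possible being 0.0121). Type 3 lines 3 and 7 also had a score of 2. Among PGF lines alone the difference was -1 with an exact permutation p of 0.229. The acidification score averaged 3.33 ± 1.15 in Type 1 (SD, n = 3) and 2.75 ± 0.886 in Type 3 (SD, n = 8), a difference of 0.583 (exact two-sided permutation p = 0.630), and the sources used here do not give its direction. Neither test reached a p of 0.05.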

How the data were processed

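Arrays of 23 clonal lines (Affymetrix mouse arrays, 1 a line) were used as the deposited log2 values, with MAS5 named per the submitters' processing notes. The log base was read from the range of the values, 2.03 to 14.46. Per the labels, groups are the adipocyte types. Of 45101 probe sets, 34958 had a single symbol, 932 several and 9211 none; each gene was read from its brightest probe set on average across all lines (18193 genes), and genes above the table median of 5.13 in at least 3 lines were tested (12307). A model with 4 groups over all 23 lines was fitted with limma 3.58.1 (R 4.3.3), and p-values were adjusted by Benjamini-Hochberg over all genes tested, with a threshold of 0.05. The fit was tested on simulated data, where 85.5% of 200 genes changed by 2-fold and 98.5% of 200 changed by 4-fold were recovered, with 4.17% false among the calls. No read depth applies, so precision is limited by how many arrays there are.

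The text names the 12 largest non-overlapping differences in each direction, up to 4 called members a list, the study's markers Wt1, Tagln and Mx1, preadipocyte genes, and relatives of named members. Members and lists were chosen with earlier results of these data known. Alternatives were probe set choice, filter, floor, centring, quantile normalization, array weights, trend, depot, clone prefix or differentiation score in the model, PGF lines alone, Type 3 lines of score 2, and leaving out each line. The actin term was added after the data were seen. Scores were compared by exact permutation tests over lines and depot by Fisher's exact test. Promoter windows came from RefSeq (GRCm38.p6, 27025 genes). Sequence of Tagln, Ccn2 and Wt1 promoters was not used here.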

Additional observations from a re-analysis of the deposited data

Results flagged for a closer look

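In 22 of 240 named genes (9.17%) 1 Type 3 line lay far from the other 7, by a test for a single outlying value that flags about 1 in 20 groups by chance. Over all 12307 genes tested the count was 1546 (12.6%). Type 3 line 4 (SCF3-9), the line with low interferon-induced genes, was the outlying line in 13 of the 22. It lay above the other Type 3 lines at 10.44 for Bmpr1a (9.65 to 9.93 in the others), 7.74 for Col11a1 (4.47 to 5.76 in the others), 12.72 for Dcn (4.81 to 7.62 in the others), 6.97 for Irs2 (4.81 to 5.72 in the others), 11.87 for Ndn (10.43 to 11.04 in the others), 8.27 for Prelp (6.13 to 7.00 in the others), 9.48 for Tek (5.77 to 7.37 in the others), 9.48 for Tjp1 (8.55 to 8.89 in the others) and 9.89 for Zfp521 (7.97 to 8.85 in the others). It lay below the other Type 3 lines at 5.19 for Cd274 (7.26 to 8.26 in the others), 6.51 for Csf1r (8.44 to 10.08 in the others), 2.87 for Ebf3 (6.75 to 8.13 in the others) and 4.66 for Hoxd9 (5.11 to 5.43 in the others). 

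Among the other Type 3 lines, the highest value stood apart in line 7 for Cnn1 (7.89, others 4.08 to 5.19), line 2 for Col4a6 (5.05, others 4.38 to 4.69), line 7 for Grb10 (7.61, others 3.44 to 3.84), line 6 for Il33 (4.86, others 3.62 to 4.14) and line 3 for Ror1 (4.40, others 3.12 to 3.68). The lowest value stood apart in line 1 for Cebpd (8.25, others 9.56 to 10.18), line 5 for Dhrs3 (6.36, others 7.82 to 8.50), line 5 for Llgl2 (5.05, others 5.39 to 5.53) and line 3 for Stk26 (3.51, others 3.81 to 4.06).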

How the results depend on the processing

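The count of 4274 genes, with 2324 higher and 1950 lower, moved by more than 1.5 times under 3 alternatives. It was 2075 (1174 higher and 901 lower) with only the 2 Type 3 lines of differentiation score 2, a setting with fewer lines. It was 7168 (3849 and 3319) when every probe set was tested, a setting with more features, and 7013 (3650 and 3363) with array weights, where the cause was not tested. Leaving out 1 line gave 3124 to 4358 genes, 1631 to 2364 of them higher and 1490 to 1994 lower. The difference in differentiation score was -1.14 to -0.857 and that in acidification score 0.25 to 1.25 when 1 line was left out. Of 214 named genes called, 140 kept direction and call under all alternatives and 74 lost the call under at least 1, most often with Type 3 lines of score 2 (70 genes), PGF lines alone (40) and without Type 1 line 3 (27). Of the 26 named genes not called, 18 were called under at least 1 alternative, 15 of them with array weights. With array weights the adjusted p was 0.000613 for Cd34, 0.0004 for Col6a1, 0.00112 for Bmpr2, 0.00838 for Tgfbr1 and 0.0204 for Tgfbr2. The mean of probe sets moved the difference of 37 called genes by over 1.5 times. Genes that changed sign were not called where the sign differed, but Hoxa10 was called without Type 1 line 2 (adjusted p = 0.0496). Without Type 1 line 1 the differences were -0.53 for Aldh1a2, 0.32 for Cd24a, 0.49 for Hoxa10 and 0.72 for Hoxa9. Array weights gave 0.25 for Dlk1, 0.34 for Hoxa10 and 0.53 for Hoxa9, and PGF lines alone 0.11 for Dlk1. Mx1 changed sign to 0.090 with the clone prefix in the model, 0.015 with the differentiation score, 0.28 and 0.096 without Type 1 lines 2 and 3, and 0.051, 0.18 and 0.028 without Type 3 lines 1, 6 and 8. Over all settings that left out 1 line, these genes spanned -0.53 to 2.19 for Aldh1a2, -3.39 to 0.32 for Cd24a, -1.87 to 0.49 for Hoxa10, -2.16 to 0.72 for Hoxa9 and -0.62 to 0.28 for Mx1. For these sign changes the cause was not tested. No paired analysis was possible because the replicate numbers only follow the order of deposition and link no lines across types. Limits are the 3 Type 1 clones, the single mouse, the missing detection calls for dim probe sets, and the partial overlap of type with depot.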

Other observations

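Ddx4, an RNA helicase best known from germ cells, was picked out after its values were seen. It read 6.86 in Type 1 line 1 and 10.55 to 10.61 in Type 1 lines 2 and 3, against 2.67 to 3.37 in the Type 3 lines, so no lines overlapped between the types and Type 1 line 1 lay between the others and Type 3. No test was added for it.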
